A study of Rattus norvegicus with 23 samples.

Results

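Rats that had breathed ozone were taken as 1 exposed group, whatever the concentration, and their sperm small RNA was compared with that of rats that had breathed filtered air. The comparison asked which small RNAs stood apart from air in the same direction at 0.4 ppm and at 0.8 ppm. The exposed group held 16 rats, 8 labelled 0.4 ppm and 8 labelled 0.8 ppm, and the air group held 7, so all 23 of the 23 labelled rats were used. The design text planned 8 rats per group. All were male Long-Evans rats, an outbred strain, and the labels give neither an age nor any genetic change. Each exposure lasted 4 h, with 3 in week 1 and 2 in week 2, and the ozone chambers averaged 0.401 ppm and 0.798 ppm. RNA below 200 nucleotides was extracted from sperm of the cauda epididymis, the part of the duct in which mature sperm are stored. It was sequenced as single-end reads of 75 cycles. Each library came from a separate rat, so the tests below measure the spread between animals.

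Sperm carry almost no active transcription, but they hold small RNAs left from their development in the testis and others gained on the way through the epididymis. miRNAs bind Argonaute proteins and repress mRNAs that pair with their seed, a short stretch near the 5′ end. Fragments of tRNAs are abundant in cauda sperm and have been tied to paternal diet and stress in mice. piRNAs guide PIWI proteins against transposons in male germ cells.

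The miRNAs with the smallest p-values in the pooled comparison are shown first, because they are described one by one below. The next 4 sequences are members of the miR-200 and miR-34/miR-449 families, shown because the comparison is described by those families. Sequences are mature miRNAs from RefSeq (build GRCr8), written 5′ to 3′ with the seed, bases 2 to 8, in capitals. Of the 416 miRNAs tested, 387 matched 1 mature sequence in that table. The other miRNAs with small p-values were miR-429 and miR-200b-3p.
miR-3588: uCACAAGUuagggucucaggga
miR-3551-5p: uCUUCACCaugguguuuuugacau
miR-24-1-5p: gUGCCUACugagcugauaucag
miR-341: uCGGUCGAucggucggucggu
miR-3559-5p: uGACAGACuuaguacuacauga
miR-125b-5p: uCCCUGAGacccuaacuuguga
miR-200c-3p: uAAUACUGccggguaaugaug
miR-141-3p: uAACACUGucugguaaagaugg
miR-34c-5p: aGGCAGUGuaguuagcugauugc
miR-449a-5p: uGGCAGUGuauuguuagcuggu

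The seeds of miR-3588, miR-3551-5p, miR-341 and miR-3559-5p were each held by 1 tested miRNA. The whole sequence of miR-3588 is the reverse complement of that of miR-125b-5p. The seed CCCUGAG of miR-125b-5p was shared by 3 tested miRNAs, and GGCAGUG was shared by 4, miR-34a-5p, miR-34b-5p, miR-34c-5p and miR-449a-5p.

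Read signal was deposited as scaled values, called normalised values here. The 4 tables were scaled separately, so levels were compared within a table. Recovered miRNA reads ran from 213839 to 1286612 per library. The 3 libraries with the fewest, at 213839, 251123 and 288857 reads (0.8 ppm replicate 5, and 0.4 ppm replicates 6 and 5), all came from exposed rats. They had the 3 lowest median correlations with the other libraries in the miRNA, tRNA and piRNA tables, and values without them are given below. Libraries of exposed rats were more variable: the median SD of a miRNA's log2 value was 0.51 in air, 0.68 at 0.4 ppm and 0.62 at 0.8 ppm. As a check of the tissue, the late germ-cell miRNAs of the miR-34/miR-449 family held between 30.8% and 47.9% of the miRNA signal in air and between 23.6% and 51.3% in exposed rats. None of the listed sperm, leukocyte or erythrocyte mRNAs was among the transcripts measured.

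No small RNA in any table differed between exposed and air rats past the adjusted threshold. A log2 difference below is the mean log2(normalised value + 1) of the 16 exposed rats minus that of the 7 air rats, and p-values are two-sided, from limma. Called means a Benjamini-Hochberg adjusted p under 0.05 over the whole table. Calls numbered 0 of 416 miRNAs (0.0%), 0 of 273 tRNA rows (0.0%), 0 of 15164 distinct piRNA rows (0.0%) and 0 of 617 Ensembl transcripts (0.0%). The smallest limma adjusted p was 0.997 for miRNAs, 0.262 for tRNA rows, 0.243 for piRNA rows and 0.964 for Ensembl transcripts. At an unadjusted p under 0.05, limma gave 13 miRNAs (3.12%), 7 with more signal in exposed rats (1.68%) and 6 with less (1.44%). For tRNA rows it gave 13 (4.76%), 6 with more (2.2%) and 7 with less (2.56%). For piRNA rows it gave 554 (3.65%), 205 with more (1.35%) and 349 with less (2.3%). For Ensembl transcripts it gave 17 (2.76%), 11 with more (1.78%) and 6 with less (0.972%). Uniform p-values would give 20.8, 13.65, 758.2 and 30.85. An exact rank-sum test also gave 0 calls in every table, with 20 miRNAs, 20 tRNA rows, 598 piRNA rows and 19 Ensembl transcripts at an unadjusted p under 0.05. On the recovered miRNA reads edgeR gave 0 calls, with 19 miRNAs at an unadjusted p under 0.05, and DESeq2 gave 0 calls, with 20.

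Few features met the rule of the same direction at both concentrations, which asked for an unadjusted p under 0.05 against air at each. It was met by 3 miRNAs (0.721%), 3 tRNA rows (1.1%), 116 piRNA rows (0.765%) and 1 Ensembl transcript (0.162%). Both contrasts use the same 7 air libraries, so these counts are a description and carry no test. In no table did any feature separate the 16 exposed from the 7 air values without overlap (0.0% in each). Between 0.8 ppm and 0.4 ppm limma called 0 features in every table, with 15 miRNAs, 6 tRNA rows, 473 piRNA rows and 14 Ensembl transcripts at an unadjusted p under 0.05.

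Pooling narrowed the error of each difference. The median SE of a log2 difference was 0.29 for miRNAs, against 0.34 for either concentration alone, and 0.22 against 0.25 for tRNA rows. For piRNA rows it was 0.43 against 0.50, and for Ensembl transcripts 0.31 against 0.36. The 95% interval of the pooled difference lay within 2-fold in either direction for 324 miRNAs (77.9%) and 262 tRNA rows (96.0%). The same held for 4997 piRNA rows (33.0%) and 420 Ensembl transcripts (68.1%). For those features the interval excludes a pooled difference above 2-fold on the log2(value + 1) scale, which understates changes of low features. For the other rows a 2-fold difference was not excluded.

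The 3 miRNAs that met the same-direction rule were miR-429, miR-200b-3p and miR-3588, each with more signal in exposed rats. miR-429 and miR-200b-3p belong to the miR-200 family, which keeps epithelial cells in their epithelial state by repressing ZEB transcription factors. Normalised values of miR-429 were 237 at the lowest, 347 at the median and 571 at the highest in air. They were 278, 569 and 1024 at 0.4 ppm, and 382, 477 and 673 at 0.8 ppm. The groups overlapped, with 6 of 16 exposed rats above the highest air rat and 0 below the lowest. The pooled log2 difference of miR-429 was 0.61 ± 0.22 (SE), with a 95% interval of 0.18 to 1.05 and a limma adjusted p of 0.997. It was 0.72 ± 0.25 at 0.4 ppm and 0.51 ± 0.25 at 0.8 ppm, and the difference between the concentrations had an interval of -0.69 to 0.28.

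miR-200b-3p stood at 98.6, 151 and 220.3 in air (lowest, median and highest normalised value). It stood at 119, 219 and 451 at 0.4 ppm, and at 149, 215 and 371 at 0.8 ppm. Of the 16 exposed rats, 7 lay above the highest air rat, and the rest overlapped with air. The log2 difference was 0.57 ± 0.23 pooled (SE; 95% interval 0.11 to 1.03; limma adjusted p = 0.997) and 0.57 ± 0.26 at each concentration. miR-3588 is a low miRNA, at 12.7, 29.0 and 40.8 in air, 27.3, 41.6 and 56.9 at 0.4 ppm, and 26.4, 39.1 and 64.4 at 0.8 ppm. Again 7 of 16 exposed rats lay above the highest air rat. This gave a log2 difference of 0.61 ± 0.21 (SE; limma adjusted p = 0.997), with 0.60 at 0.4 ppm and 0.61 at 0.8 ppm. Without the 3 libraries with the fewest reads the differences were 0.54 for miR-429, 0.55 for miR-200b-3p and 0.53 for miR-3588.

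**Figure D1:**
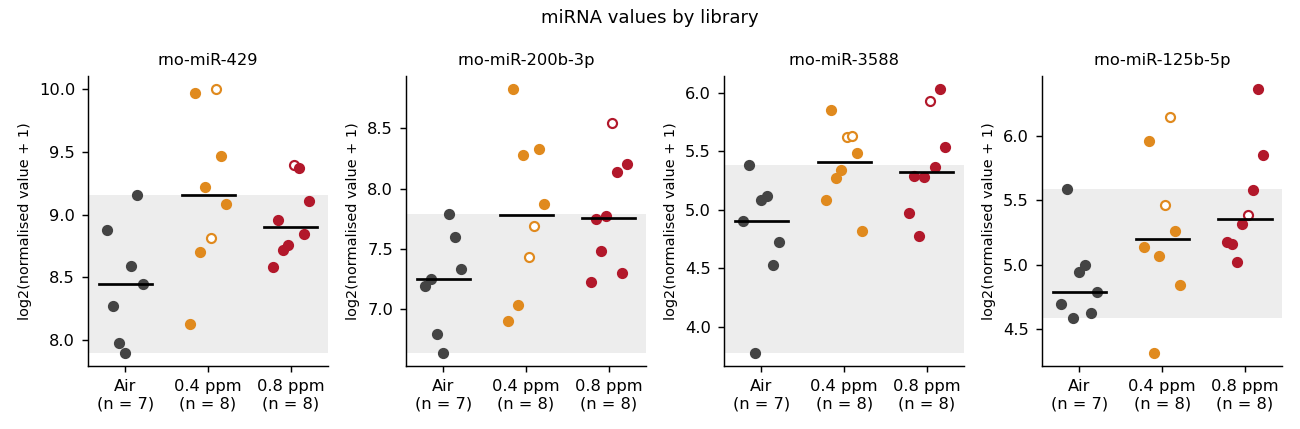
Normalised values of miR-429, miR-200b-3p, miR-3588 and miR-125b-5p in each library, as log2(value + 1) on the vertical axis, for air (n = 7), 0.4 ppm (n = 8) and 0.8 ppm (n = 8). Black bars are group medians, the grey band is the air range, and open circles are the 3 libraries with the fewest miRNA reads; both ozone medians lie above the air median for each miRNA, and the groups overlap.

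The plot of single miRNAs by group also shows miR-125b-5p, a widespread miRNA of differentiated cells. It stood at 23.0, 26.5 and 47.0 in air, at 18.9, 35.8 and 70.0 at 0.4 ppm, and at 31.5, 39.8 and 81.2 at 0.8 ppm. Its air range was set by 1 rat, air replicate 2 at 47.0, and 4 of 16 exposed rats lay above that value. The log2 difference was 0.49 ± 0.23 (SE; limma adjusted p = 0.997), 0.39 at 0.4 ppm and 0.59 at 0.8 ppm. The 3 miRNAs with its seed, CCCUGAG, had pooled log2 differences from 0.23 to 0.49 with a median of 0.26, against a median of 0.01 over all 416 miRNAs.

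The miRNAs with the smallest p-values and less signal in exposed rats were all near the detection limit. miR-3551-5p stood at 1.15, 6.34 and 11.9 in air and at 0, 3.10 and 6.57 over the 16 exposed rats. It had a log2 difference of -1.0 ± 0.41 (SE; limma adjusted p = 0.997), and -0.60 without the 3 libraries with the fewest reads. miR-341, of the imprinted Dlk1-Dio3 cluster, stood at 0.938, 4.61 and 11.9 in air and at 0, 2.03 and 7.0 in exposed rats, a log2 difference of -0.94 ± 0.39 (SE). miR-3559-5p stood at 3.10, 6.36 and 15.0 in air and at 0, 3.92 and 14.4 in exposed rats, a log2 difference of -0.80 ± 0.37 (SE). In all 3 the groups overlapped, and between 3 and 6 of 16 exposed rats lay below the lowest air rat. miR-24-1-5p, the passenger strand of 1 copy of miR-24, was listed at 0 in 7 of 7 air libraries and above 0 in 8 of 16 exposed ones. Its highest exposed value was 14.4 and its exposed median 0.47, so no fold is given. The filter asked for values above 0 in at least 7 libraries, so miR-24-1-5p entered the test through exposed libraries alone. It is among the 7 miRNAs with more signal at an unadjusted limma p under 0.05, and its p-value is not taken as support.

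The 8 tested members of the miR-200 family all had positive pooled log2 differences, with a median of 0.37 against 0.01 over all miRNAs, of which 210 of 416 were positive. None was called, and 3 had an unadjusted p under 0.05 (miR-429, miR-200b-3p and miR-141-5p). Of these, miR-141-5p was near the detection limit, with a mean value of 1.29 and 9 libraries at 0. The family median was 0.53 at 0.4 ppm and 0.17 at 0.8 ppm, and all 8 were positive at the first and 7 at the second. The exception at 0.8 ppm was miR-200a-3p, which with a mean value of 3194 was second in abundance to miR-141-3p. Its values ran from 1581 to 4146 in air and from 2532 to 5598 at 0.4 ppm. At 0.8 ppm they ran from 1247 to 3299, apart from replicate 5 at 7934. miR-141-3p, the most abundant member, stood at 1512, 2984 and 5541 in air, at 3104, 4824 and 9112 at 0.4 ppm, and at 2299, 3473 and 4994 at 0.8 ppm. Of the 8 rats at 0.4 ppm 1 lay above the highest air rat, and all 8 at 0.8 ppm lay within the air range. The log2 differences of miR-141-3p were 0.67 ± 0.25 and 0.18 ± 0.25 (SE), and the interval of 0.8 ppm minus 0.4 ppm was -0.97 to 0.00. miR-200c-3p, from the same cluster as miR-141, had a pooled log2 difference of 0.05 ± 0.17 (SE). The family held 0.688% to 1.45% of the miRNA signal in air and 0.699% to 3.23% in exposed rats. Without the 3 libraries with the fewest reads the family median was 0.26 and 5 of 8 members were positive. In bulk RNA, more cells of a type and more RNA per cell cannot be told apart.

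Markers of muscle and connective tissue stood on the same side as the miR-200 family. All 5 tested miRNAs of that list had positive pooled log2 differences, with a median of 0.42, and 0.37 without the 3 libraries with the fewest reads. The list held 1.54% to 2.79% of the miRNA signal in air and 1.60% to 11.3% in exposed rats. Its main member, miR-143-3p of smooth muscle and fibroblasts, stood at 9688, 10249 and 18627 in air and at 9545, 13910.3 and 76738 in exposed rats. Most exposed rats were within the air range, with 3 of 16 above it and 1 below. The log2 difference of miR-143-3p was 0.42 ± 0.26 (SE; limma adjusted p = 0.997). Its passenger strand miR-143-5p was at 0 in 18 of 23 libraries. The defining muscle miRNAs miR-1-3p and miR-206-3p were above 0 in every library, at 7.77 to 45.7 and 4.85 to 40.1. What part these cells have in the miR-200 values was not tested.

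Other cell-type lists lay near the table's median. The leukocyte list had 3 of 9 members positive and a median log2 difference of -0.10, and it held 2.09% to 4.81% of the signal in air and 1.75% to 6.43% in exposed rats. Of its members, miR-223-3p and miR-142-3p were low, at 0 in 4 libraries and in 1. Others, miR-142-5p, miR-150-5p and miR-155-5p, were above 0 in every library, with mean values of 325, 54.8 and 51.5. The highest mean value of the list was that of miR-146b-5p, at 16977. The erythroid list had 2 of 4 members positive and a median of 0.01, with shares of 0.0273% to 0.0895% in air and 0.0107% to 0.206% in exposed rats. miR-451-5p, the red cell miRNA, was above 0 in every library. Neither list had a member with an unadjusted p under 0.05.

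The leading germ-cell miRNA had different medians at the 2 concentrations. miR-34c-5p, which averaged 24.6% of the miRNA signal over all libraries, stood at 126048, 173231 and 189608 in air. It stood at 90352, 124228 and 162360.0 at 0.4 ppm and at 96494, 170828 and 221099 at 0.8 ppm. The 0.4 ppm median lay below the lowest air rat, and the 0.8 ppm median lay beside the air median. On the log2 scale, exposed minus air was -0.27 ± 0.16 pooled (SE; limma adjusted p = 0.997), -0.44 ± 0.18 at 0.4 ppm and -0.10 ± 0.18 at 0.8 ppm. The interval of the difference between the concentrations was -0.01 to 0.68. Over the 7 tested members of the miR-34/miR-449 family the pooled median was -0.19 with 1 positive, miR-34a-5p at 0.22. Without the 3 libraries with the fewest reads the family median was 0.00 and 4 of 7 were positive.

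The X-linked miR-506 family, a fast-evolving germ-cell family, had 17 of 25 members positive and a median of 0.21, and 0.13 without those 3 libraries. The smallest p-value among its members was that of miR-201-3p, which was at 0 in 11 of 23 libraries. Its 2 most abundant members had pooled log2 differences of -0.04 ± 0.18 (SE) for miR-743b-3p and -0.01 ± 0.16 for miR-743a-3p. The family of miR-10 and miR-125, with miR-99 and miR-100, had 12 of 14 positive and a median of 0.28, with medians of 0.39 at 0.4 ppm and 0.08 at 0.8 ppm. Without the 3 libraries with the fewest reads its median was 0.13.

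The remaining miRNA lists had pooled medians close to that of all miRNAs. The let-7 family had 10 of 17 members positive and a median log2 difference of 0.02, and the 9 tested miRNAs with the let-7 seed GAGGUAG had a median of 0.07. The miR-17-92 and related clusters, which promote proliferation, had 5 of 16 positive and a median of -0.06. The miR-30 family had 2 of 9 positive and -0.10, the miR-15/miR-16 family 5 of 9 and 0.01, and the miR-29 family 3 of 4 and 0.01. The miR-183/miR-96/miR-182 cluster had 1 of 2 positive and a median of 0.13. miRNAs tied to paternal stress had 2 of 6 positive and a median of -0.08. Those tied to oxidative stress and hypoxia, such as miR-21-5p at -0.04 ± 0.18 (SE), had 5 of 10 positive and a median of 0.01. The Dlk1-Dio3 cluster list, which did not include miR-341, had 12 of 26 positive and a median of -0.01. Per-million scaling and quantile normalization left the sign of the median as it was for the miR-200, muscle and stroma, miR-506, miR-10 and miR-34/miR-449 lists.

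**Figure D2:**
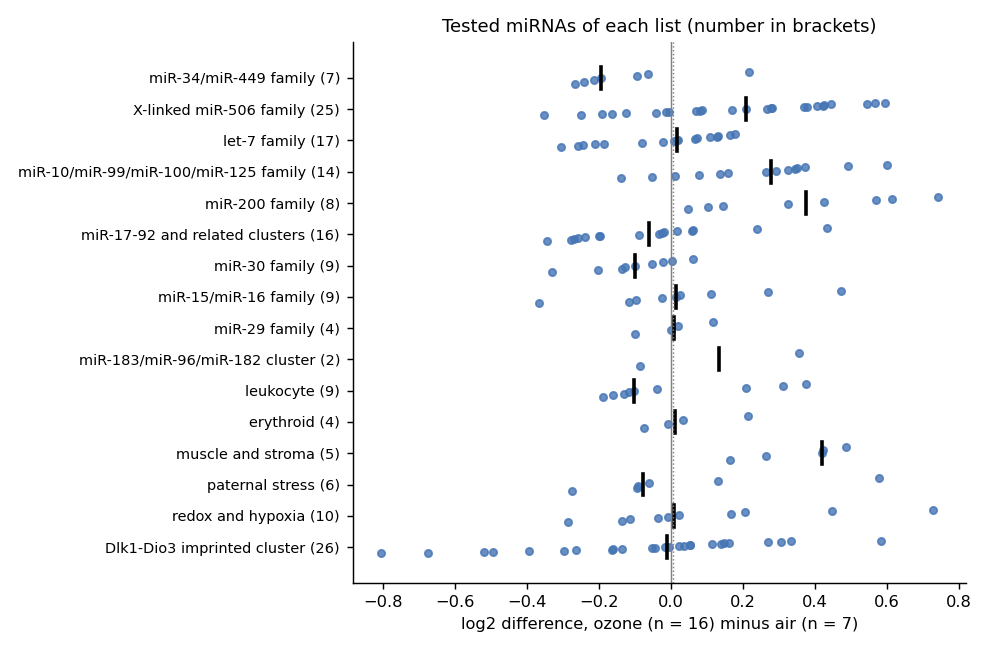
Pooled log2 difference (16 ozone minus 7 air rats, horizontal axis) of each tested miRNA, 1 row of points per list, with list medians as black bars and the median of all tested miRNAs as a dotted line. All 8 miR-200 members and all 5 muscle and stroma members lie to the right of 0, and 6 of 7 miR-34/miR-449 members lie to the left.

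The tRNA table had no called row either, and rows of some anticodons stood on 1 side of 0. tRNA rows are named by amino acid, anticodon and gene copy. Near-identical copies share reads, so rows of 1 anticodon are not separate signals. The row tRNA-Gln-CTG-2-2 stood at 4.64, 11.1 and 18.4 in air, at 10.6, 15.1 and 28.0 at 0.4 ppm, and at 14.9, 19.6 and 29.4 at 0.8 ppm. Of the 16 exposed rats 8 lay above the highest air rat, and 15 lay above the air median. Exposed minus air gave a log2 difference of 0.85 ± 0.24 (SE; 95% interval 0.37 to 1.32; limma adjusted p = 0.262), 0.73 ± 0.27 at 0.4 ppm and 0.96 ± 0.27 at 0.8 ppm. The interval between the concentrations was -0.30 to 0.76. With each rat left out the pooled value stayed between 0.69 and 0.98. The copy tRNA-Gln-CTG-2-1, with a mean value of 41.9 against 16.9 for tRNA-Gln-CTG-2-2, had a pooled log2 difference of 0.17 ± 0.21 (SE).

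The row tRX-Val-NNN-3-1, a tRNA-like gene with no assigned anticodon, was lower still. It stood at 0.937, 2.89 and 9.11 in air, at 2.24, 8.17 and 16.2 at 0.4 ppm, and at 2.71, 7.74 and 11.8 at 0.8 ppm. The groups overlapped, and 5 of 16 exposed rats lay above the air range. The log2 difference between exposed and air rats was 0.91 ± 0.29 (SE; limma adjusted p = 0.512), the highest of any tRNA row. tRNA-Ser-AGA-2-1, the third row to meet the same-direction rule, had less signal in exposed rats. It stood at 164, 211 and 308 in air, at 53.6, 166 and 255 at 0.4 ppm, and at 113, 149.8 and 183 at 0.8 ppm. Of the 16 exposed rats, 11 lay below the lowest air rat. Its log2 difference was -0.57 ± 0.20 pooled (SE; limma adjusted p = 0.631), -0.58 at 0.4 ppm and -0.55 at 0.8 ppm, and -0.39 without the 3 libraries with the fewest reads.

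**Figure D3:**
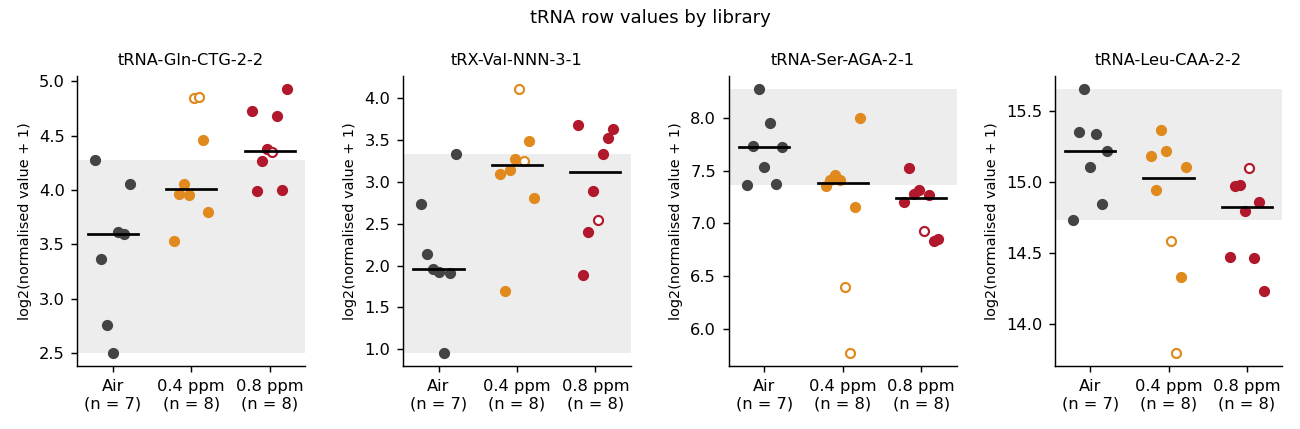
Normalised values of tRNA-Gln-CTG-2-2, tRX-Val-NNN-3-1, tRNA-Ser-AGA-2-1 and tRNA-Leu-CAA-2-2 in each library, as log2(value + 1), for air (n = 7), 0.4 ppm (n = 8) and 0.8 ppm (n = 8), with group medians as black bars, the air range in grey and the 3 libraries with the fewest miRNA reads as open circles. Of the exposed rats 8 of 16 lie above the air range for tRNA-Gln-CTG-2-2 and 5 of 16 for tRX-Val-NNN-3-1, and 11 of 16 sit below it for tRNA-Ser-AGA-2-1.

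By anticodon, rows were read against the median of -0.02 over all 273 tRNA rows. All 7 rows of tRNA-Ser-AGA had negative pooled log2 differences, with a median of -0.49, -0.55 at 0.4 ppm and -0.43 at 0.8 ppm, and 5 had an unadjusted p under 0.05. The related row tRNA-Ser-TGA-1-1 stood at 167, 216 and 334 in air and at 68.2, 166 and 257 in exposed rats, a log2 difference of -0.50 ± 0.19 (SE; limma adjusted p = 0.631). Its values ran close to those of tRNA-Ser-AGA-2-1 in many libraries, such as 216 and 212 in air replicate 2. They were further apart in others, such as 157 and 121 in 0.8 ppm replicate 5. Whether these rows share reads was not tested, so tRNA-Ser-TGA-1-1 is not taken as a separate signal. tRNA-Gln-CTG had 7 of 9 rows positive with a median of 0.26, and 3 rows had an unadjusted p under 0.05. Those 3 rows were low, with mean values of 16.9, 5.35 and 12.4. The rows tRNA-Gln-CTG-1-2 and tRNA-Gln-CTG-5-2, with mean values of 42.0 and 37.9, had log2 differences of 0.18 and -0.01. All 3 rows of tRNA-Leu-CAA were negative with a median of -0.39. They include the most abundant tRNA row, tRNA-Leu-CAA-2-2, at 27239, 38118 and 51463 in air and at 14245, 30630.2 and 42128 in exposed rats. Its exposed values reached below the air range in 6 of 16 rats, and its log2 difference was -0.40 ± 0.20 (SE; limma adjusted p = 0.848).

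tRNA-Gly-GCC, whose fragments are prominent in cauda sperm, had 11 of 11 rows negative with a median of -0.20, which came from -0.03 at 0.4 ppm and -0.29 at 0.8 ppm. Its leading row tRNA-Gly-GCC-1-5 stood at 23474, 32452 and 42069 in air and at 11130.4, 28077 and 52778 in exposed rats. All 10 rows of tRNA-His-GTG were positive with a median of 0.23, and 0.06 without the 3 libraries with the fewest reads. All 3 rows of tRNA-Thr-TGT were positive with a median of 0.42, and all 10 of tRNA-Lys-CTT with 0.10. Per-million scaling moved the median of all tRNA rows from -0.02 to 0.14. Under it the Ser-AGA median was -0.32, Leu-CAA -0.23, Gly-GCC -0.04 and Gln-CTG 0.42, each still on its side of the table's median. When rows were summed by anticodon, 0 of 55 sums were called by limma and 2 had an unadjusted p under 0.05.

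For tRNA rows, 1 alternative fit gave calls. When limma weighted each library by how well it followed its group, 19 of 273 tRNA rows were called (6.96%), 7 with more and 12 with less signal in exposed rats. Those with more were 3 rows of Gln-CTG, tRX-Val-NNN-3-1, Thr-TGT-2-2, iMet-CAT-1-4 and Lys-TTT-1-3. Those with less were 4 rows of Glu-TTC, 3 of Ser-AGA, 2 of Arg-TCG, Ser-TGA-1-1, Arg-CCT-4-1 and Leu-CAA-2-2. tRNA-Gln-CTG-2-2 had a weighted log2 difference of 1.08 ± 0.21 (SE; limma adjusted p = 0.0020). The 3 libraries with the fewest miRNA reads received the 3 lowest weights in the tRNA table. The lowest weight was 0.315, and the highest were 3.41 for air replicate 4 and 2.13 for air replicate 5. Air replicate 4 was the lowest air rat for tRNA-Gln-CTG-2-2 (4.64) and the highest for tRNA-Arg-CCT-4-1 (335). For tRNA-Ser-AGA-2-1 it lay inside the air range (184). How far the weighted calls rest on that rat was not tested. When the 3 libraries with the fewest reads were left out and the rest weighted equally, limma called 0 rows, with 13 at an unadjusted p under 0.05 and a smallest adjusted p of 0.738. All 19 rows kept their sign there, and 8 of them had an unadjusted p under 0.05 in the unweighted fit. Weights were estimated for each table separately, and limma called 0 features in each of the other 3 tables. The smallest weighted adjusted p among miRNAs was 0.116, for miR-429, with 47 miRNAs at an unadjusted p under 0.05. Of the piRNA rows 926 and of the Ensembl transcripts 50 had an unadjusted p under 0.05 with weights.

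The leading tRNA rows held a smaller mean share in exposed rats, a difference that did not pass the test. In air, the leading 10 rows of a library held 62.4%, 64.2% and 65.8% of the tRNA signal (lowest, median and highest). They held 56.1%, 63.8% and 68.0% at 0.4 ppm, and 56.4%, 60.2% and 62.6% at 0.8 ppm. Of the 16 exposed rats 9 lay below the lowest air rat, 3 at 0.4 ppm and 6 at 0.8 ppm. The means were 61.3% ± 3.66 (SD, n = 16) and 64.1% ± 1.12 (n = 7). Their difference was -2.85 percentage points by a two-sided exact permutation test (p = 0.0593; adjusted p = 0.356 over 6 measures). The 10 most abundant miRNAs held 61.1% ± 3.19 of their table in exposed rats and 62.7% ± 1.89 in air (exact permutation p = 0.230). Recovered miRNA reads averaged 665400.1 ± 334173 in exposed rats and 727314 ± 273964 in air (exact permutation p = 0.671), and miRNAs above 0 averaged 368 ± 27.9 and 373 ± 15.1 (exact permutation p = 0.707).

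**Figure D4:**
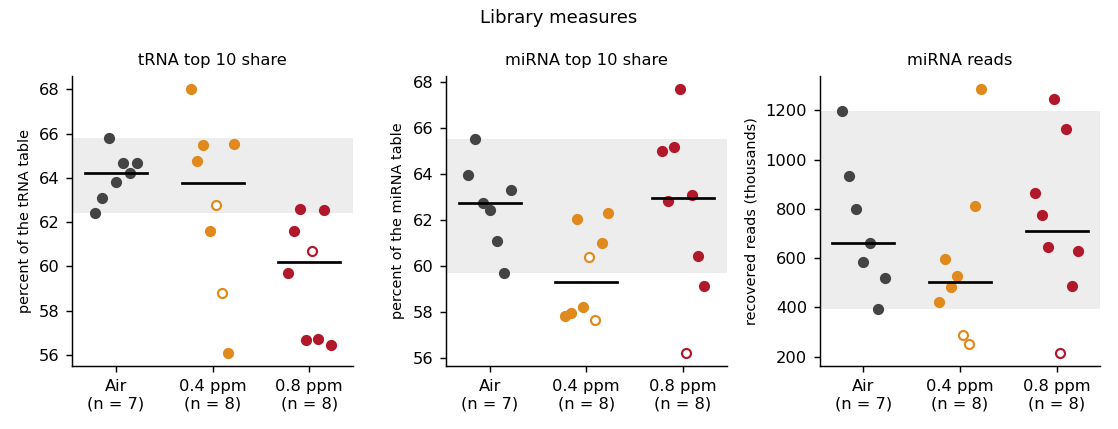
Share of the tRNA and miRNA signal held by each library's 10 most abundant rows (percent) and recovered miRNA reads (in units of 1000), for air (n = 7), 0.4 ppm (n = 8) and 0.8 ppm (n = 8), with group medians as black bars, the air range in grey and the 3 libraries with the fewest miRNA reads as open circles. In the tRNA panel 9 of 16 exposed rats lie below the air range of 62.4% to 65.8%.

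The piRNA table had the most rows, the most large differences and the widest errors. Of 15164 distinct rows, 741 had a pooled log2 difference above 1 in size. The same held for 2 of 416 miRNAs, 0 of 273 tRNA rows and 5 of 617 Ensembl transcripts. The median SE was 0.43 for piRNA rows, against 0.29 for miRNAs, 0.22 for tRNA rows and 0.31 for Ensembl transcripts. Whether the 741 rows exceed what errors of that width would give was not tested. Of the 116 rows that met the same-direction rule, 84 had less signal in exposed rats (0.554%) and 32 had more (0.211%). Only 36 of the 116 had a mean value of at least 10, and 1 had at least 100, while 7529 and 1865 of all rows did. Depth is unknown for this table, since its values are not whole reads, and many piRNA names share reads.

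piR-rno-227431 had the smallest p-value of the piRNA table. It stood at 0.387, 5.35 and 11.4 in air, at 0.122, 0.345 and 0.794 at 0.4 ppm, and at 0.174, 1.04 and 3.19 at 0.8 ppm. Every exposed rat lay below the air median, and the groups overlapped through the lowest air rats, of which replicate 2 stood at 0.387. On the log2 scale, exposed minus air was -1.72 ± 0.32 (SE; 95% interval -2.38 to -1.05; limma adjusted p = 0.243), -2.03 at 0.4 ppm and -1.41 at 0.8 ppm. Without air replicate 2, the lowest air rat, the log2 difference was -2.05 and the row was called (limma adjusted p = 0.0022). Leaving out the air rat closest to the exposed ones widens the difference, so this call is not taken as support. Of the 23 fits that left out 1 rat, 2 gave a piRNA call.

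piR-rno-3926760 had more signal in exposed rats. It stood at 9.14e-05, 1.14 and 16.1 in air, at 4.94, 14.9 and 19.8 at 0.4 ppm, and at 5.21, 15.9 and 27.7 at 0.8 ppm. All 16 exposed rats lay above the air median, and air replicate 1, at 16.1, lay above 9 of them. Exposed minus air gave a log2 difference of 2.28 ± 0.46 (SE; limma adjusted p = 0.324), 2.12 at 0.4 ppm and 2.44 at 0.8 ppm. Without air replicate 1, the highest air rat, the log2 difference was 2.71 and the row was called (limma adjusted p = 0.0162). Here too leaving out that air rat widens the difference, and the call is not taken as support.

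piR-rno-1361373 stood at 7.17, 14.6 and 20.3 in air and at 0.0910, 0.718 and 12.7 in exposed rats, of which 12 of 16 lay below the lowest air rat. The log2 difference between exposed and air rats was -2.20 ± 0.52 (SE; limma adjusted p = 0.997), -2.68 at 0.4 ppm and -1.72 at 0.8 ppm. piR-rno-1663369, a row that 2 piRNA names share, came closest to separating the groups. It stood at 6.93, 9.31 and 13.4 in air and at 1.51, 3.58 and 13.1 in exposed rats, with 15 of 16 below the lowest air rat and 1 at 0.8 ppm inside the air range. This gave a log2 difference of -1.17 ± 0.29 (SE; limma adjusted p = 0.997), -1.22 at 0.4 ppm and -1.12 at 0.8 ppm. piR-rno-40318 stood at 2.42, 5.32 and 14.9 in air and at 0.730, 2.39 and 4.12 in exposed rats, a log2 difference of -1.17 ± 0.30 (SE). Without the 3 libraries with the fewest reads these 5 rows kept log2 differences of -1.72, 2.32, -2.30, -1.12 and -1.12, in the order given.

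**Figure D5:**
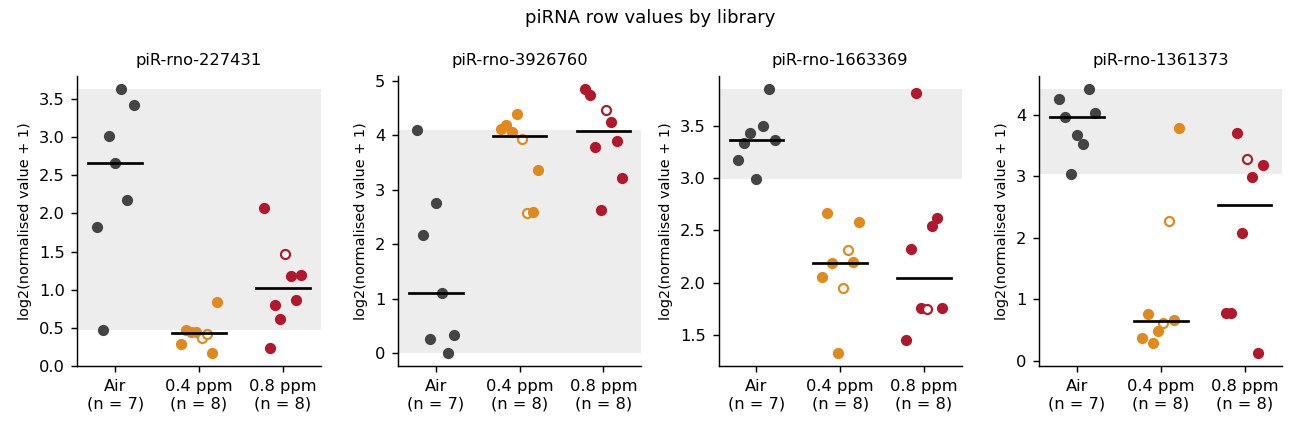
Normalised values of piR-rno-227431, piR-rno-3926760, piR-rno-1663369 and piR-rno-1361373 in each library, as log2(value + 1), for air (n = 7), 0.4 ppm (n = 8) and 0.8 ppm (n = 8), with group medians as black bars, the air range in grey and the 3 libraries with the fewest miRNA reads as open circles. All exposed rats lie below the air median in the first panel and above it in the second, and 1 exposed rat lies inside the air range for piR-rno-1663369.

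The abundant piRNAs overlapped throughout. piR-rno-3104129, the most abundant, stood at 265268, 457823 and 556876 in air and at 140438, 351118 and 1123100.0 in exposed rats. Its log2 difference was -0.16 ± 0.31 (SE; 95% interval -0.80 to 0.49). piR-rno-2129341 stood at 203760.0, 280424 and 393701 in air and at 151363, 364558 and 671708 in exposed rats. Exposed minus air gave a log2 difference of 0.33 ± 0.26 (SE; 95% interval -0.20 to 0.85).

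The rows of the last table are transcripts with Ensembl identifiers, and where in a transcript the reads lay is not given. The 1 transcript to meet the same-direction rule was of Slc38a10, an amino acid transporter. It stood at 6.78, 11.7 and 26.5 in air, at 0.0024, 5.92 and 16.8 at 0.4 ppm, and at 0.124, 4.11 and 18.9 at 0.8 ppm. The groups overlapped, with 9 of 16 exposed rats below the lowest air rat. The log2 difference between exposed and air rats was -1.55 ± 0.60 (SE; 95% interval -2.79 to -0.31; limma adjusted p = 0.964), -1.52 at 0.4 ppm and -1.58 at 0.8 ppm. A transcript of the olfactory receptor gene Olr1646 stood at 0.933, 3.26 and 11.6 in air and at 1.99, 6.87 and 29.4 in exposed rats, a log2 difference of 1.15 ± 0.47 (SE; limma adjusted p = 0.964). A transcript of Samd9, an antiviral gene that interferon induces, stood at 14.1, 15.1 and 35.1 in air and at 13.2, 34.1 and 141 in exposed rats. Of the 16 exposed rats 8 lay above the air range. This gave a log2 difference of 0.91 ± 0.39 (SE; limma adjusted p = 0.964), and 2 other Samd9 transcripts, which may hold the same reads, gave 0.87 and 0.86.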

How the data were processed

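Small RNA libraries of cauda sperm from 23 rats were compared, 16 exposed to ozone and 7 to air. Groups follow the treatment label of each rat. The members and lists were chosen with earlier results of these data known. The authors deposited 4 tables of scaled read signal (425 miRNA, 273 tRNA, 30676 piRNA and 617 Ensembl rows), and per the submitters' processing notes the tools were Partek and Bowtie 1.0.0, with the build rn6. The sources used here do not give how reads were assigned. In the deposited signal 100% of 242 to 286 low miRNA values per library were whole multiples of 1 read within 0.1 of a read, which gave the recovered reads. Per the labels' protocols, RNA integrity numbers were 2 to 4. The 15512 piRNA rows that repeat another row were tested once.

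Features above 0 in at least 7 libraries entered limma 3.58.1 (R 4.3.3) as log2(value + 1). The moderation was robust and followed the trend of variance with level. A 2-group model gave the pooled comparison, and a 3-group model gave each concentration. p-values were Benjamini-Hochberg adjusted within a table, and intervals are 95%. The scripts were tested on simulated data. Library measures were compared by an exact permutation test on group means (all 245157 relabellings). Alternatives were pseudocounts of 0.5 and 5, filters, per-million and quantile scaling, library weights, covariates, rank-sum tests, edgeR 4.0.16, DESeq2 1.42.0 and leaving out each rat. The named features were those with the 8 smallest p-values among miRNAs and the 5 smallest elsewhere, the 4 most abundant of each table, 2 members per list, up to 5 called under an alternative alone, and up to 5 that met the same-direction rule. Text names further rows only where a list or alternative count called for them, after their values were seen. 2 Ensembl transcripts that the rule names are not reported here.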

Additional observations from a re-analysis of the deposited data

Results flagged for a closer look

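Single libraries that stood apart from the rest of their group were sought among the named features and library measures. A library was picked when its gap to the nearest value exceeded the 95% critical value of Dixon's test for its group's range. This gave 24 of 234 groups of values, where chance at 1 in 20 gives 11.7. In air, replicate 6 was the lowest for miR-34c-5p (126048), and it stood apart for let-7a-5p (20439.3), miR-93-5p (2748.84), miR-15b-5p (120.251) and miR-146b-5p (30782.6). Air replicate 7 stood apart for miR-3551-5p (1.15) and miR-30d-5p (13939.5), and air replicate 2 for miR-125b-5p (47.0).

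At 0.4 ppm, replicate 6, 1 of the 3 libraries with the fewest miRNA reads, stood apart for miR-141-3p (9112), miR-25-3p (8999), the mitochondrial transcript AY172581.24 (13878) and the share of the 10 most abundant piRNA rows (26.2%). Replicate 8 was the highest for piR-rno-227431 (0.794), and replicate 2 stood apart for Pcdhga7 (26994.7). At 0.8 ppm, replicate 5, the library with the fewest miRNA reads, stood apart for miR-24-1-5p (14.4), miR-3559-5p (14.4), miR-29c-3p (0), AY172581.24 (18805) and the piRNA share (18.1%). Replicate 7 stood apart for miR-143-3p (76738), miR-145-5p (238), let-7a-5p (18785), miR-146b-5p (31000.1) and miR-382-5p (99.5). Of these, miR-143-3p and miR-145-5p belong to the muscle and stroma list. Without each rat in turn, the pooled log2 difference of miR-143-3p lay between 0.27 and 0.53.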

How the results depend on the processing

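miRNAs and Ensembl transcripts gave 0 calls under every alternative, and so did each of the other tables except as follows. Library weights called 19 tRNA rows, and leaving out 1 rat gave 0 to 1 piRNA call (1 without air replicate 1 and 1 without air replicate 2). The number of features with the same direction at both concentrations was less stable. For miRNAs it was 3, 1 under per-million scaling, and 1 to 6 with a rat left out (1 without air replicate 3 or 4 or 0.4 ppm replicate 8, 5 without 0.4 ppm replicate 1, 6 without 0.4 ppm replicate 5). For tRNA rows it was 3, 1 without the 3 libraries with the fewest miRNA reads, and 2 to 8 with a rat left out (5 without air replicate 1 or 0.4 ppm replicate 5 or 8, 6 without 0.8 ppm replicate 2, 8 without air replicate 6). For piRNA rows it was 116, and 95 to 158 with a rat left out. For Ensembl transcripts it was 1, 2 under quantile normalization, 4 without those 3 libraries, and 0 to 4 with a rat left out (0 without air 1, 0.4 ppm 2 or 7, or 0.8 ppm 1, 6 or 8; 2 without air 6 or 7, 0.4 ppm 4, 5 or 8, or 0.8 ppm 3 or 7; 3 without 0.8 ppm 4; 4 without 0.4 ppm 6). Among uncalled library measures, the difference in miRNAs above 0 was -4.40, 0.10 by mean ranks and 6.05 without those 3 libraries. That in the piRNA top 10 share was -0.99, 0.0684 for the top 5 rows, 0.652 without those 3, and -1.63 to 0.0342 with a rat left out (0.0342 without 0.8 ppm replicate 5). That in miRNA reads was -61914, 33654 without those 3, and -117312 to 16829 with a rat left out (16829 without air replicate 1). The cause was not tested. Leaving out the 3 libraries, and the filter at a mean value of 10, were chosen after seeing the data. Of 72 named features 25 changed sign under some alternative and 11 were called under an alternative, and none in the limma fit of all 23 rats. Per-million scaling moved the median log2 difference of all rows to 0.06 for miRNAs, 0.14 for tRNA rows, -0.19 for piRNA rows and -0.12 for Ensembl transcripts, from 0.01, -0.02, -0.03 and -0.02. piRNA rows had the widest intervals, with 33.0% of them within 2-fold. No paired analysis was possible because replicate numbers only follow the order of the libraries. The column names end in 12 different numbers, 11 of them on 2 libraries each. The labels do not say what these numbers mark, and no run effect was modelled.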

Other observations

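The most abundant Ensembl rows gave pooled log2 differences within their errors. The mitochondrial transcript AY172581.24, which averaged 41.3% of the table, stood at 39936, 56137 and 115110.0 in air (lowest, median and highest) and at 13878, 68755 and 112660.0 in exposed rats. Its log2 difference was -0.07 ± 0.31 (SE; limma adjusted p = 0.986). Over the 22 mitochondrial transcripts 13 were positive and the median was 0.03, against -0.02 over all 617 transcripts. A transcript of Stat2, which carries interferon signals to the nucleus, had 0.33 ± 0.43 (SE). Lcn5, a lipocalin that the epididymal epithelium secretes and the only measured mRNA of that epithelium's list, stood at 67.2, 72.5 and 135 in air and at 38.5, 77.8 and 157 in exposed rats. Its log2 difference was -0.11 ± 0.25 (SE; limma adjusted p = 0.964).

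A few seed groups of miRNAs are given here as values with no test. The 5 tested miRNAs with the seed AAAGUGC, the miR-17 seed, had a median pooled log2 difference of -0.20, with 1 positive. The 3 with AGUGCAA, the miR-130 and miR-301 seed, had -0.25, with 0 positive. The 3 with GGAAUGU, the seed of the muscle miRNAs miR-1 and miR-206, had 0.26, with 3 positive.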
